A study of Mus musculus with 12 samples.

Results

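The genes described here are 10 components of the NRF2 antioxidant response, taken by symbol from a table of FPKM values (read fragments scaled for transcript length and library size) for 23234 mouse genes. All 10 were found: the regulators Nfe2l2 and Keap1 and the 8 effector genes Gclc, Gclm, Gsr, Txn1, Txnrd1, Prdx1, Srxn1 and Nqo1. The values came from 12 RNA-seq libraries of primary mouse acute myeloid leukaemia cells that carry NRASG12V together with the Mll-AF9 fusion, on an (FVB/n X C57/BL/6J) F1 background. Every group shares this genotype, the serum-containing medium with GM-CSF and the 24 h of culture, so nothing here compares cells with and without the NRAS allele. The 4 groups of 3 libraries received the vehicle DMSO, PD325901 (20 µM, an inhibitor of the kinases MEK1 and MEK2), RAD001 (26 µM, everolimus, an inhibitor of the raptor-containing mTOR complex) or GDC0941 (20 µM, an inhibitor of class I PI3 kinases). Each inhibitor was given at a single dose, the doses were not matched for potency, and the labels do not say how many leukaemias or mice the libraries came from. Every p-value therefore measures only the spread between these libraries, which may be technical.

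NRF2, the protein encoded by Nfe2l2, is a leucine zipper transcription factor that pairs with small MAF proteins at antioxidant response elements in DNA. KEAP1 holds NRF2 for ubiquitination by a CUL3 ligase and lets it go when oxidants or electrophiles modify cysteines of KEAP1, so NRF2 is controlled largely as a protein, which RNA-seq does not measure. Its classic targets make glutathione, reduce thioredoxin and peroxiredoxins, and detoxify quinones. In mouse cells, oncogenic Ras signalling has been reported to raise the Nfe2l2 transcript, so the level of that transcript under inhibitors of Ras effector pathways is described first among the results for single genes.

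The sequences below are shown because NRF2 acts at a short DNA motif and several of these genes moved together. The motif searched was the core of the antioxidant response element, TGACNNNGC, on both strands (GCNNNGTCA on the gene's own strand when the core lies on the other), in the 250 bases before each start site of the RefSeq promoter table (build GRCm38.p6). Of the 10 genes, 8 had an entry in that table, Gclc and Gsr being the others. The core was found upstream of 4 of the 8: Prdx1, Gclm, the second of 3 start sites of Txnrd1, and Nfe2l2 itself. It was not found in that window for Keap1, Txn1, Srxn1 or Nqo1. Of all promoters listed there, 10.2% held it, and 14.3% of the 7478 tested genes with an entry did so at any start site. Each line gives 140 bases, 5′ to 3′ on the gene's strand, with the core in capitals. The Prdx1 stretch is chr4:116685399-116685538 (plus strand), the Gclm stretch chr3:122245357-122245496 (plus strand) and the Txnrd1 stretch chr10:82859006-82859145 (plus strand), each from 200 to 61 bases before the start. The Nfe2l2 stretch is chr2:75704774-75704913 (minus strand), from 250 to 111 bases before the start. None of the 4 overlaps an exon of its own gene in GENCODE M21. The Prdx1, Gclm and Nfe2l2 stretches lie before the gene, and the Txnrd1 stretch lies inside the gene (chr10:82833951-82897712), downstream of its first start site. The Txnrd1 and Nfe2l2 stretches overlap exons of the non-coding transcripts Gm38560 and E030042O20Rik. A match is a description of the letters only, and no binding was measured.
Prdx1: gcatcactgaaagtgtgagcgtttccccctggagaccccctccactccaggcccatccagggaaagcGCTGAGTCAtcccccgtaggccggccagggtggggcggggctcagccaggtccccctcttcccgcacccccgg
Gclm: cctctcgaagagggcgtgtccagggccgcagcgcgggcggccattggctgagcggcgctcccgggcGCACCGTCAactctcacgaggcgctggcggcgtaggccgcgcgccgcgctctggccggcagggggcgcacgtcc
Txnrd1: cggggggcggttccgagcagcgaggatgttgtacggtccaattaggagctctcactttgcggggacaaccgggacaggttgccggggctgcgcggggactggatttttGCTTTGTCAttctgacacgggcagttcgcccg
Nfe2l2: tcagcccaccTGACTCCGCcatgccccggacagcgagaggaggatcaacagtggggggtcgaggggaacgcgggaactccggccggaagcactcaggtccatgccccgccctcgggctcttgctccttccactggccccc

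The table holds FPKM without read counts, so the depth behind each value is unknown. The test covered the 10305 genes whose mean reached 1 FPKM, all 10 components among them, and compared log2(FPKM + 1) with limma in 1 fit over the 12 libraries. Below, "rose" and "fell" are used where the p-value adjusted by the Benjamini-Hochberg method over all tested genes was under 0.05. Log2 changes are on the log2(FPKM + 1) scale and are given ± SE or with the 95% interval of the fit, and FPKM means ± SD with n = 3. Libraries of the same group had Spearman correlations of 0.966 to 0.996 over genes, libraries of different groups 0.875 to 0.965, and no 2 were identical. For the 8 effector genes the replicate 1 libraries of DMSO, RAD001 and GDC0941 stood apart. RAD001 replicate 1 and GDC0941 replicate 1 were each the lowest of their 3 libraries for 8 of 8 genes, on average 0.27 and 0.37 below their group mean on the log2 scale (mean deviations -0.27 and -0.37). DMSO replicate 1 was the highest of its group for 6 of 8, with a mean deviation of 0.31. PD325901 replicate 1 did not stand apart, being the highest for 4 genes and the lowest for 4 (mean deviation -0.02). Results with the 4 replicate 1 libraries removed are given where they change a call of the 10 genes against DMSO, and for some other counts. These libraries stood out in the values of the same 8 genes. Their removal therefore tends to raise the RAD001 and GDC0941 changes of these genes by construction. Through DMSO replicate 1 it tends to raise the PD325901 changes as well. The p-values that follow are no independent check for any inhibitor.

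**Figure D1:**
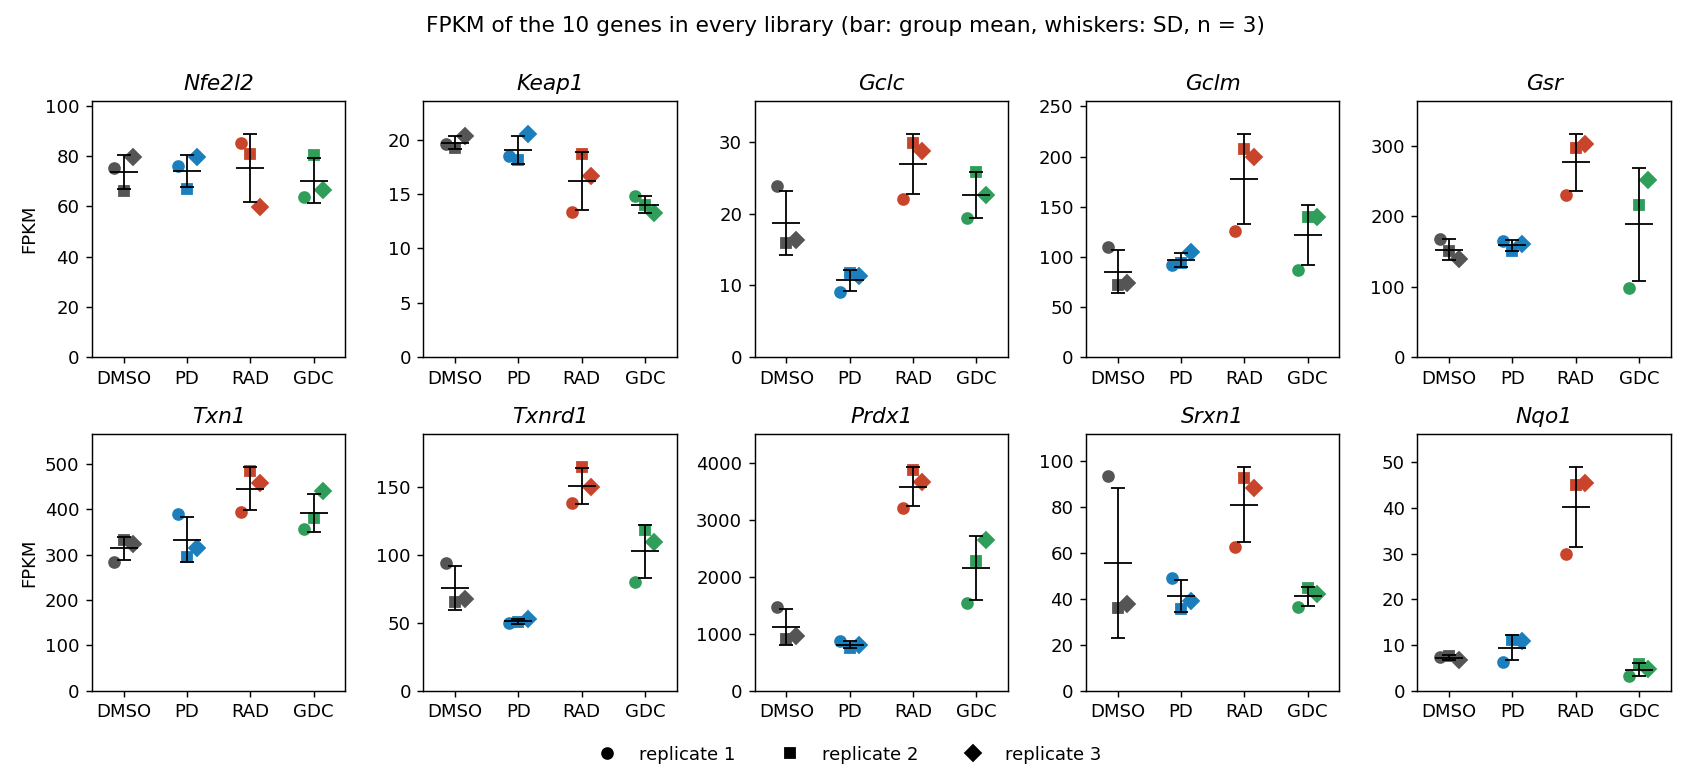
FPKM of the 10 genes (vertical axes, each starting at 0) in every library by treatment (PD, RAD and GDC stand for PD325901, RAD001 and GDC0941), with marker shapes for replicate numbers, bars for group means and whiskers for SD (n = 3). The RAD001 libraries lie above all DMSO libraries for Gclm, Gsr, Txn1, Txnrd1, Prdx1 and Nqo1, while the 4 groups overlap for Nfe2l2.

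With RAD001 7 of the 10 genes rose and 0 fell, and all 7 are effectors (Nqo1, Prdx1, Gclm, Txnrd1, Gsr, Gclc and Txn1). The eighth effector, Srxn1, did not pass, nor did Nfe2l2 and Keap1. The calls for Nqo1, Prdx1, Gclm and Txnrd1 were made in all 16 alternatives of the processing, those for Txn1, Gclc and Gsr in 14, 10 and 9. Over all tested genes 15.4% rose and 15.9% fell with RAD001 (31.3% in either direction). The median log2 change was 0.93 for the 8 effectors, 0.75 for the 10 genes and 0 for all tested genes. Libraries did not overlap, with RAD001 above DMSO, for 6 of the 10 genes, against 25.3% of all tested genes, and with RAD001 below DMSO for Keap1 alone, against 25.6%. Without the RAD001 or DMSO libraries one at a time, 5 to 7 of the 10 were called. After quantile normalization, which forces the same distribution of values on every library, 5 rose and Keap1 fell.

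With GDC0941 the list split. Prdx1 rose and Keap1 fell, and the other 8 genes did not pass, where 11.6% of all tested genes rose and 12.7% fell (24.3% in either direction), so the count of calls is close to the background. The median log2 change was 0.24 for the 10 genes and 0.02 for all tested genes. GDC0941 lay above DMSO without overlap for Txn1 and Prdx1 (20.3% of tested genes) and below it for Keap1 and Nqo1 (18.3%). The GDC0941 counts depended on replicate 1. Without GDC0941 replicate 1 there were 5 calls, 4 of them rises (Prdx1, Gclm, Gsr and Txnrd1), and 3140 of all tested genes were called. With all 4 replicate 1 libraries removed, 9 of the 10 were called, 7 higher and 2 lower, and 4321 genes in all in place of 2503. After quantile normalization Keap1 alone was called.

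With PD325901 Gclc and Txnrd1 fell and no gene of the 10 rose, where 28.2% of all tested genes fell and 18.4% rose (46.6% in either direction). The count of falls is close to that background. After quantile normalization the direction of the background changed, with 2675 rises and 2455 falls among all tested genes, against 1893 and 2909, while the same 2 genes, Gclc and Txnrd1, were called lower. The median log2 change was -0.02 for the 10 genes and -0.06 for all tested genes. PD325901 lay below DMSO without overlap for Gclc, Txnrd1 and Prdx1, against 36.9% of all tested genes, and above it for 0 of the 10, against 25.8%. Without DMSO replicate 1 only the Gclc fall was called. Removing all 4 replicate 1 libraries gave 5 calls, with Gclm and Nqo1 higher and Gclc, Txnrd1 and Prdx1 lower. In that setting 5693 of the 10305 tested genes were called, in place of 4802.

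**Figure D2:**
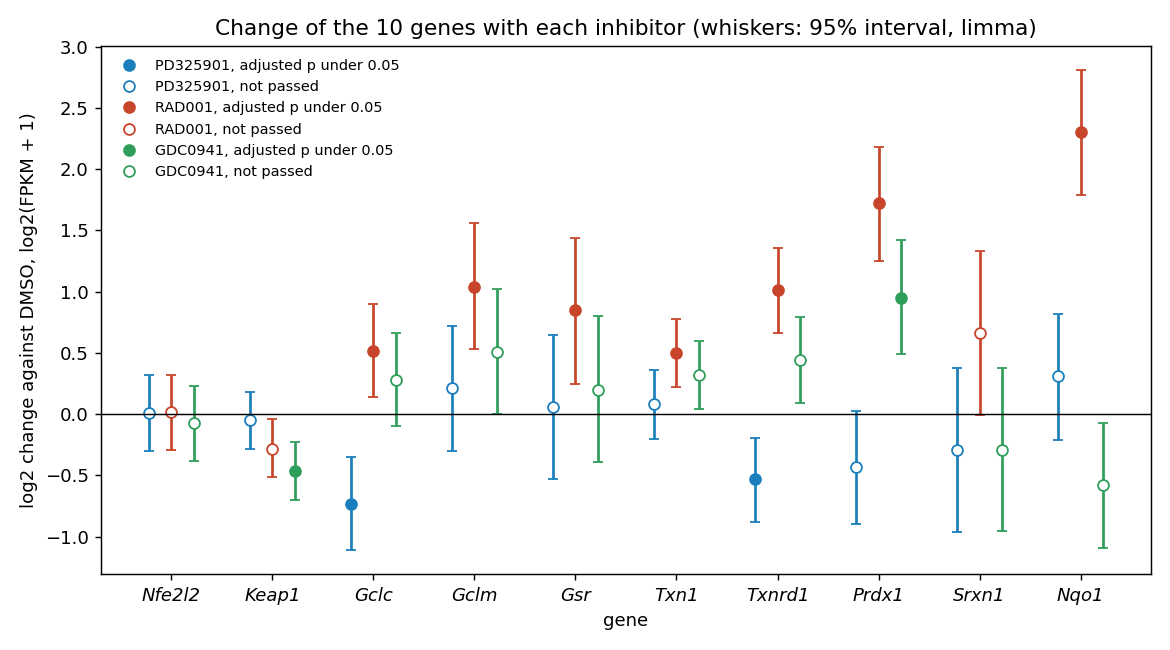
Log2 change of each of the 10 genes against DMSO on the log2(FPKM + 1) scale (vertical axis) for the 3 inhibitors, which share the DMSO libraries; filled points passed at an adjusted p under 0.05, open points did not, and whiskers are 95% intervals from limma. Nqo1 with RAD001 has the largest change, 2.30, and the 3 Nfe2l2 points lie between -0.07 and 0.02.

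With RAD001, where 7 of the 8 effectors rose, neither regulator passed. Nfe2l2 was at 75.1, 66.15 and 79.7 FPKM in the 3 DMSO libraries and at 76.0, 66.9 and 79.5 with PD325901. With RAD001 it was at 85.0, 80.9 and 59.8 FPKM, and with GDC0941 at 63.6, 80.3 and 66.5. These ranges overlap in every pair of groups, and the group means lie between 70.1 and 75.2 FPKM. The log2 change of Nfe2l2 was 0.01 (95% interval -0.30 to 0.32) with PD325901, 0.02 (-0.29 to 0.32) with RAD001 and -0.07 (-0.38 to 0.23) with GDC0941, and adjusted p by limma was 0.961, 0.931 and 0.748. These intervals include rises and falls of about 0.3 on the log2 scale. The sign of these small differences varied with single libraries and with quantile normalization, and across 16 alternatives Nfe2l2 was called in none of its 3 comparisons with DMSO.

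Keap1, whose product restrains NRF2, was lowest with GDC0941. It was at 19.6, 19.2 and 20.3 FPKM with DMSO and at 14.8, 14.0 and 13.2 with GDC0941, where every library lay below every DMSO library. Keap1 fell by 0.46 ± 0.11 on the log2 scale with GDC0941 (adjusted p = 0.00925 by limma, 0.00187 to 0.0371 over 16 alternatives, called in all 16). With RAD001 the libraries were at 13.35, 18.6 and 16.6 FPKM, also all below DMSO, but the change of -0.28 (95% interval -0.51 to -0.04) did not pass (adjusted p = 0.0687 by limma). It passed in 2 of 16 alternatives, without RAD001 replicate 2 (0.0276) and after quantile normalization (0.0382). With PD325901 Keap1 stood at 18.5, 18.1 and 20.5 FPKM, with replicates 1 and 2 below every DMSO library and replicate 3 above (log2 change -0.05, 95% interval -0.28 to 0.18). In order of level, DMSO, PD325901 and RAD001 neighbours did not differ beyond their spread, and PD325901 was above GDC0941 by 0.41 ± 0.11 (adjusted p = 0.00701 by limma).

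The glutathione genes Gclc and Gclm encode the catalytic and the modifier subunit of glutamate-cysteine ligase, the rate-limiting enzyme of glutathione synthesis, and they parted with the MEK inhibitor. Gclc was at 23.8, 15.8 and 16.3 FPKM with DMSO and at 9.05, 11.7 and 11.4 with PD325901, all 3 below DMSO. It fell with PD325901 by 0.73 ± 0.17 on the log2 scale (adjusted p = 0.00513 by limma, 0.000257 to 0.0233 over 16 alternatives, called in all 16). Gclm stood at 110, 71.9 and 73.8 FPKM with DMSO and at 92.1, 93.8 and 105 with PD325901, which overlap, and its change of 0.21 (95% interval -0.30 to 0.72) did not pass. Where Gclm FPKM were 4.57 ± 0.051 times Gclc FPKM with DMSO, they were 9.13 ± 1.09 times with PD325901 (SD, n = 3), and every PD325901 library lay above every DMSO library in this ratio. The same held for RAD001, at 6.53 ± 0.718 times, so a higher ratio was not particular to PD325901. With GDC0941 the ratio was 5.36 ± 0.828 and overlapped DMSO.

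With RAD001 both subunit genes were higher. Gclm was at 126, 207 and 200 FPKM, all above DMSO, a 2.08-fold difference in means and a log2 change of 1.04 ± 0.23 (adjusted p = 0.00625 by limma, called in all 16 alternatives). Gclc was at 22.1, 29.8 and 28.8 FPKM, where replicate 1 lay below the highest DMSO library, and it rose by 0.52 ± 0.17 (adjusted p = 0.0406 by limma). The Gclc call ended without any 1 of DMSO replicates 2 and 3 and RAD001 replicates 2 and 3 (log2 changes 0.42 to 0.47, adjusted p 0.121 to 0.146), when low genes were kept (0.0662) and when the fit held just RAD001 and DMSO (0.071), and over all 16 alternatives adjusted p ran from 2.67e-06 to 0.146. With GDC0941 Gclc (19.4, 25.9 and 22.6 FPKM) and Gclm (87.4, 139 and 139 FPKM) overlapped the DMSO range and did not pass, at 0.28 (-0.10 to 0.66) and 0.51 (0.00 to 1.02). After removal of the replicate 1 libraries both passed with GDC0941, Gclc at 0.56 (adjusted p = 0.000595 by limma) and Gclm at 0.93 (9.96e-06). By level, Gclc ran RAD001, GDC0941, DMSO, PD325901, and only the step from DMSO to PD325901 passed between neighbours.

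Gsr, glutathione reductase, which returns oxidized glutathione to its reduced form with NADPH, was high with RAD001. It stood at 168, 150 and 139 FPKM with DMSO and at 230, 296 and 303 with RAD001, all above DMSO (1.82-fold, log2 change 0.85 ± 0.27, adjusted p = 0.0338 by limma). That call ended without any single DMSO library or RAD001 replicate 2 or 3 (adjusted p 0.0501 to 0.101, log2 changes 0.78 to 0.92), when low genes were kept (0.0606) and after quantile normalization (0.09 at 0.66). Over 16 alternatives adjusted p ran from 1.51e-06 to 0.101. The GDC0941 libraries of Gsr lay far apart, at 98.5, 216 and 251 FPKM, with replicate 1 below every DMSO library and the other two above. Its change with GDC0941 was 0.20 (95% interval -0.39 to 0.80), or 0.61 without GDC0941 replicate 1, when it passed (adjusted p = 0.00613 by limma). With the 4 replicate 1 libraries removed that change was 0.69 and also passed (adjusted p = 0.000207 by limma). With PD325901 Gsr was at 165, 150 and 160 FPKM, within the DMSO range (0.06, -0.53 to 0.65).

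Thioredoxin, encoded by Txn1, reduces disulfides in other proteins, and thioredoxin reductase 1, encoded by Txnrd1, recharges it with NADPH. Txnrd1 was at 94.0, 65.0 and 67.2 FPKM with DMSO and at 138, 164 and 150 with RAD001, all above DMSO, a 2.00-fold difference. It rose with RAD001 by 1.01 ± 0.16 on the log2 scale (adjusted p = 0.000934 by limma, 2.79e-08 to 0.00592 over 16 alternatives). With PD325901 it went the other way, to 49.6, 50.5 and 52.9 FPKM, all below DMSO. That fall was 0.53 ± 0.16 (log2 change -0.53, adjusted p = 0.0170 by limma) and was not called without DMSO replicate 1 (-0.37, adjusted p = 0.0651, the highest of 16 alternatives, the lowest being 0.00118). With GDC0941 Txnrd1 stood at 80.1, 118 and 109 FPKM, where replicate 1 overlaps DMSO, and 0.44 (0.09 to 0.79) did not pass (adjusted p = 0.0663 by limma). It passed in 4 of 16 alternatives, among them without DMSO replicate 1 (0.0155), without GDC0941 replicate 1 (0.0102) and with the 4 replicate 1 libraries removed (3.69e-05). The groups thus ran RAD001, GDC0941, DMSO, PD325901 in level, as for Gclc.

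Txn1 moved less than its reductase. It was at 284, 333.5 and 324 FPKM with DMSO and at 394, 485 and 458 with RAD001, all above DMSO, and it rose by 0.50 ± 0.13 (1.42-fold, adjusted p = 0.0118 by limma). The call ended without RAD001 replicate 2 (0.0519) and after quantile normalization (0.27, adjusted p = 0.0931), in a range of 6.78e-06 to 0.0931 over 16 alternatives. With GDC0941 all 3 libraries (356, 381 and 440 FPKM) also lay above DMSO, at 0.32 (0.04 to 0.60), but did not pass (adjusted p = 0.0915 by limma). Txn1 passed there with the 4 replicate 1 libraries removed (0.32, adjusted p = 0.0136 by limma). With PD325901 Txn1 was at 390, 295 and 316 FPKM, with replicate 1 above every DMSO library and the other two inside the DMSO range (0.08, -0.20 to 0.36). Txn1 FPKM were 4.33 ± 1.14 times Txnrd1 FPKM with DMSO, 2.95 ± 0.0975 times with RAD001, 3.9 ± 0.617 times with GDC0941 and 6.55 ± 1.14 times with PD325901 (SD, n = 3). In this ratio RAD001 and GDC0941 overlapped DMSO, where replicate 1 was at 3.03, and every PD325901 library lay above DMSO.

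Prdx1, peroxiredoxin 1, an abundant enzyme that destroys hydrogen peroxide with electrons from thioredoxin, had the highest level of the 10 genes in every group. It was at 1476, 906 and 962 FPKM with DMSO and ranked 51 of 23234 genes by mean. With RAD001 it was at 3218, 3878 and 3661 FPKM and ranked 11. The RAD001 libraries lay far above DMSO, a 3.22-fold difference and a log2 change of 1.72 ± 0.21 (adjusted p = 0.000234 by limma, 5.53e-09 to 0.00204 over 16 alternatives). Only 0.66% of tested genes had a larger change with RAD001. With GDC0941 Prdx1 was at 1546, 2283 and 2640 FPKM, again all above DMSO, and it rose by 0.95 ± 0.21 (1.93-fold, adjusted p = 0.00794 by limma). That call ended after quantile normalization (0.62, adjusted p = 0.0568, the highest of 16 alternatives, the lowest being 4.5e-06). With PD325901 it was at 873, 746 and 799 FPKM, all below DMSO, but the change of -0.43 (-0.90 to 0.03) did not pass (adjusted p = 0.115 by limma). With the 4 replicate 1 libraries removed that change was -0.27 and passed (0.0306).

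Srxn1, sulfiredoxin 1, which repairs over-oxidized peroxiredoxins, was the effector that did not pass with RAD001, and DMSO replicate 1 sets its spread. With DMSO it stood at 93.4, 35.9 and 37.6 FPKM, so that replicate 1 was above even the RAD001 libraries (62.55, 92.5 and 88.1 FPKM). The change with RAD001 was 0.66 (95% interval -0.01 to 1.33, adjusted p = 0.121 by limma). Without DMSO replicate 1 it was 1.10 (adjusted p = 0.00162), and with the 4 replicate 1 libraries removed 1.27 (1.53e-06), against a highest value of 0.370 over 16 alternatives. With PD325901 (49.0, 35.6 and 38.9 FPKM) and GDC0941 (36.6, 44.6 and 42.3 FPKM) the libraries overlapped the DMSO range, at -0.29 (-0.96 to 0.38) and -0.29 (-0.95 to 0.38). Both signs turned without DMSO replicate 1, to 0.15 and 0.16. On removal of the 4 replicate 1 libraries, Srxn1 was 0.24 higher with GDC0941 and passed (adjusted p = 0.0265 by limma).

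Nqo1 encodes the quinone reductase that is often used as a readout of NRF2, and it had the largest change of the 10 genes. With DMSO it was low, at 7.46, 7.58 and 6.65 FPKM (rank 6554 of 23234 genes). With RAD001 it was at 30.0, 45.0 and 45.4 FPKM, every library far above DMSO, and ranked 1937. It rose 5.55-fold, by 2.30 ± 0.23 on the log2 scale (adjusted p = 7.76e-05 by limma, 3.11e-09 to 0.000724 over 16 alternatives), and 0.311% of tested genes had a larger change. With GDC0941 Nqo1 went the other way from Prdx1, to 3.19, 5.94 and 4.73 FPKM, all below DMSO, though -0.58 (95% interval -1.09 to -0.07) did not pass (adjusted p = 0.0943 by limma). It passed in 2 of 16 alternatives, one of them with the 4 replicate 1 libraries removed (-0.36, adjusted p = 0.0219). With PD325901 it was at 6.27, 11.1 and 10.9 FPKM, with replicate 1 below DMSO and the others above (0.31, -0.21 to 0.82, adjusted p = 0.306). Removal of the replicate 1 libraries brought it to 0.57, which passed (0.0016).

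**Figure D3:**
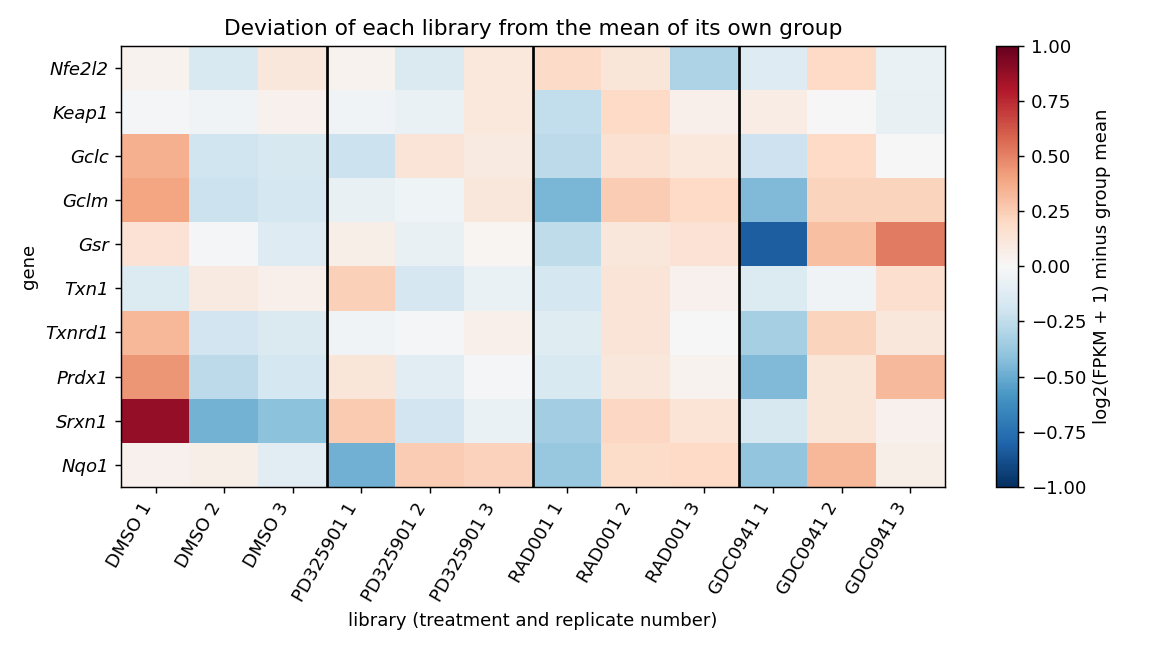
Deviation of each library (columns, by treatment and replicate number) from the mean of its own group for the 10 genes (rows), in log2(FPKM + 1), from blue (below the mean) to red (above). RAD001 replicate 1 and GDC0941 replicate 1 are below their group means for all 8 effectors, and DMSO replicate 1 is farthest above for Srxn1.

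The inhibitors were also compared with each other, with the same fit. All 8 effectors were lower with PD325901 than with RAD001, and all 3 PD325901 libraries lay below all RAD001 libraries for these 8, where 29.4% of all tested genes were called lower and 35.9% lay below without overlap (20.8% were called higher, 50.2% in either direction, and 26.6% lay above). After quantile normalization 2639 tested genes were higher and 2572 lower, and 5 of the 10 were called lower and Keap1 higher. The largest of these differences were in Prdx1 (-2.15 ± 0.21), Nqo1 (-1.99 ± 0.23), Txnrd1 (-1.54 ± 0.16) and Gclc (-1.25 ± 0.17), with adjusted p from 1.17e-05 to 0.000128 by limma, and each was called in all 16 alternatives. Gclm (-0.83), Gsr (-0.79), Txn1 (-0.42) and Srxn1 (-0.95) lost the call in 1 to 8 of 16 alternatives. Only 5 of the 10 were called without PD325901 replicate 2 or without replicate 3.

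RAD001 was above GDC0941 in sign for 10 of 10 genes, 3 of which passed, where 9.35% of all tested genes were called higher and 8.09% lower (17.4% in either direction). After quantile normalization the split among all tested genes was 906 higher and 1152 lower, and 2 of the 10 were called, both higher. The calls were Nqo1 (2.88 ± 0.23, an 8.68-fold difference, adjusted p = 2.67e-05 by limma), Prdx1 (0.76 ± 0.21, 0.0307) and Txnrd1 (0.57 ± 0.16, 0.0318). RAD001 lay above GDC0941 without overlap for these 3 and Srxn1, against 14.9% of tested genes, and below it for 0 of the 10, against 17.3%. Nqo1 alone remained called without RAD001 replicate 2, without RAD001 replicate 3, without GDC0941 replicate 1 and when low genes were kept, whereas 6 genes were called without RAD001 replicate 1 and 8 with the 4 replicate 1 libraries removed. In the last 2 settings 1985 and 3428 of all tested genes were called, in place of 1798. PD325901 was below GDC0941 for Prdx1 (-1.39 ± 0.21), Gclc (-1.01 ± 0.17) and Txnrd1 (-0.97 ± 0.16) and above it for Nqo1 (0.88 ± 0.23) and Keap1, where 30.7% of tested genes were called lower and 20.9% higher (51.5% in either direction). Those 5 calls were made in all 16 alternatives, and the libraries did not overlap for any of the 5 (33.5% of tested genes lay below and 23.2% above).

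A list of 59 further genes of the pathway was examined in the same fit (57 of them were in the table and 55 were tested, Nfe2l3 and Gsta4 being too low). With RAD001 22 of the 55 rose and 5 fell, or 15 and 11 after quantile normalization, at a median log2 change of 0.14, where 15.4% of all tested genes rose and 15.9% fell. With PD325901 10 rose and 13 fell, or 12 and 11 after quantile normalization (median -0.15), where 18.4% of all tested genes rose and 28.2% fell. With GDC0941 7 rose and 5 fell, or 5 and 6 after quantile normalization (median 0.01), where 11.6% rose and 12.7% fell. The PD325901 and GDC0941 counts are near those shares. The RAD001 count was 43, with 29 rises, after removal of the replicate 1 libraries, where 4845 of all tested genes were called. It was 19 to 30 without single libraries. Between inhibitors 25 were called for PD325901 against RAD001 (6 higher, or 15 of 30 after quantile normalization), 24 for PD325901 against GDC0941 (10 higher, or 14 of 26) and 13 for RAD001 against GDC0941 (10 higher, or 9 of 15). Of all tested genes 50.2%, 51.5% and 17.4% were called in these comparisons, so the counts with PD325901 do not exceed the background.

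The group of regulators and cofactors of NRF2 also holds the target gene Hmox1. Of its 11 tested members 5 rose and 1 fell with RAD001 (31.3% of all tested genes called), 1 rose and 4 fell with PD325901 (46.6%), and 1 rose with GDC0941 (24.3%). Hmox1 is 1 of the 5 rises and 1 of the 4 falls. Maff, a small MAF partner of NRF2, was at 7.35, 4.41 and 4.004 FPKM with DMSO and at 16.5, 12.25 and 11.2 with RAD001, all above DMSO (1.21 ± 0.22, adjusted p = 0.00202 by limma). It rose with GDC0941 (0.97 ± 0.22) and fell with PD325901 (-1.03 ± 0.22). The related Mafg rose with RAD001 (0.65 ± 0.12). Bach1, a repressor that competes with NRF2 for the same elements, rose with PD325901 (0.84 ± 0.18) and RAD001 (0.70 ± 0.18). Nfe2l1, a relative of NRF2, fell with both (-0.67 ± 0.10 and -0.43 ± 0.10). Hmox1, heme oxygenase 1, a target of both NRF2 and BACH1, went from 1985, 1374 and 1450 FPKM with DMSO to 484, 529 and 572 with PD325901, all below DMSO (-1.58 ± 0.24, adjusted p = 0.000329 by limma). With RAD001 it was at 1669, 3137 and 3253 FPKM, which overlaps DMSO in replicate 1, and rose by 0.70 ± 0.24 (adjusted p = 0.0432).

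In glutathione synthesis and use, 4 of 13 tested rose and 0 fell with RAD001 (31.3% of all tested genes called), 3 rose and 2 fell with GDC0941 (24.3%), and 4 rose and 3 fell with PD325901 (46.6%). Slc7a11, the cystine carrier that feeds glutathione synthesis, was at 5.05, 3.40 and 4.14 FPKM with DMSO, at 21.6, 40.9 and 40.5 with RAD001 and at 10.2, 31.5 and 22.9 with GDC0941, both groups above DMSO in every library. Its log2 changes were 2.72 ± 0.37 (adjusted p = 0.000384 by limma) and 2.00 ± 0.37 (0.00299), and with PD325901 (1.14, 2.09 and 2.66 FPKM) -0.83 ± 0.37 did not pass (0.0834). Abcc1, an exporter of glutathione conjugates, rose with RAD001 (1.74 ± 0.22) and GDC0941 (0.76 ± 0.22) and fell with PD325901 (-1.05 ± 0.22). The microsomal transferase gene Mgst2 rose with PD325901 (0.83 ± 0.14) and RAD001 (0.60 ± 0.14) and fell with GDC0941 (-0.54 ± 0.14). With PD325901 the glutaredoxin gene Glrx fell (-0.82 ± 0.09) and the transferase gene Gsto1 rose (0.61 ± 0.12).

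**Figure D4:**
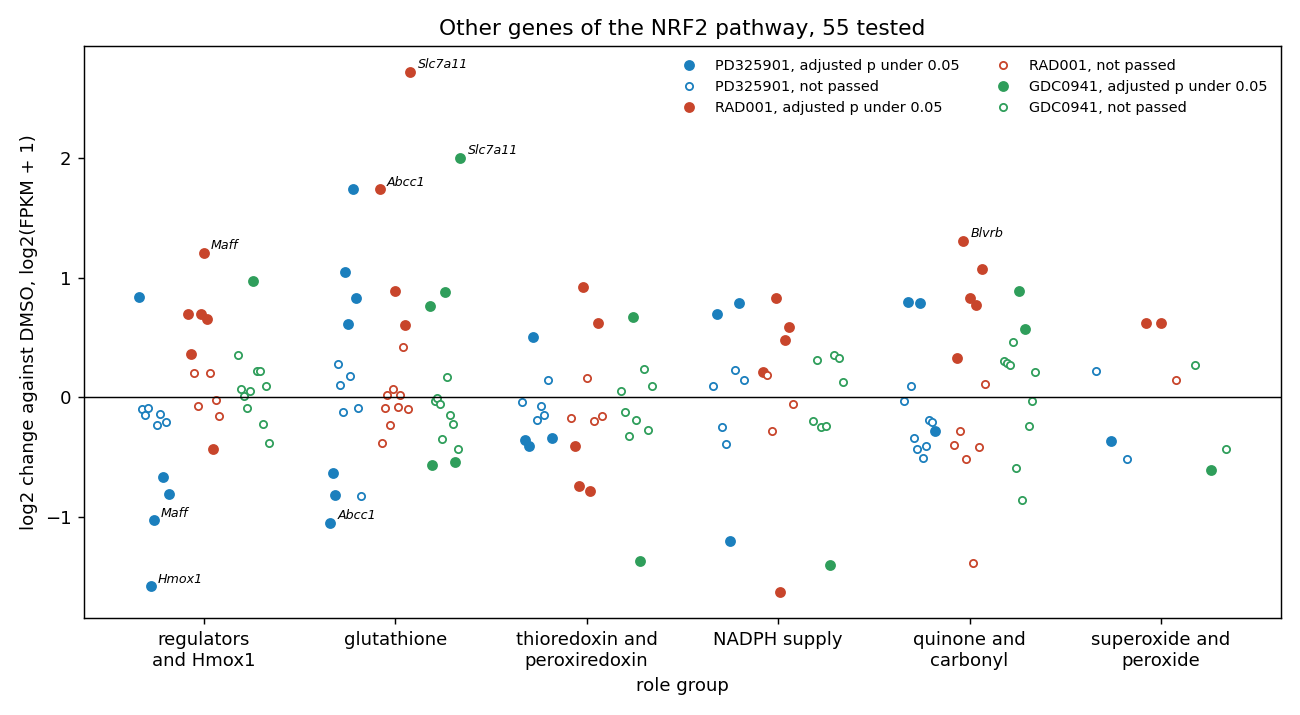
Log2 change against DMSO on the log2(FPKM + 1) scale (vertical axis) of the 55 tested pathway genes that are not among the 10, by role group and inhibitor; filled points passed at an adjusted p under 0.05 and open points did not. Slc7a11 is the highest point with RAD001 (2.72) and with GDC0941 (2.00), and Hmox1, a target plotted in the group of regulators, the lowest of that group with PD325901 (-1.58).

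The other role groups varied by inhibitor. In the thioredoxin and peroxiredoxin group 2 of 9 tested rose and 3 fell with RAD001 (31.3% of all tested genes called), 1 rose and 3 fell with PD325901 (46.6%), and 1 rose and 1 fell with GDC0941 (24.3%). Prdx5, a peroxiredoxin of mitochondria and peroxisomes, rose with RAD001 (0.92 ± 0.14), GDC0941 (0.67 ± 0.14) and PD325901 (0.50 ± 0.14). The mitochondrial Prdx3 fell with RAD001 (-0.41 ± 0.08) and PD325901 (-0.36 ± 0.08), and the mitochondrial reductase Txnrd2 fell with PD325901 (-0.34 ± 0.10). Sesn2, a stress-induced regulator of mTOR that is also a target of ATF4, fell with GDC0941 (-1.37 ± 0.09) and RAD001 (-0.78 ± 0.09). Of 8 NADPH-supplying genes 4 rose and 1 fell with RAD001 (31.3%), 2 rose and 1 fell with PD325901 (46.6%), and 1 fell with GDC0941 (24.3%). The fall was in each case Mthfd2, a mitochondrial folate enzyme (-1.63 ± 0.17 with RAD001, -1.20 ± 0.17 with PD325901, -1.40 ± 0.17 with GDC0941). The pentose phosphate genes Pgd (0.48 ± 0.13) and Taldo1 (0.59 ± 0.20) rose with RAD001, and Taldo1 (0.79 ± 0.20) and Idh1 (0.70 ± 0.12) with PD325901.

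Of 11 tested quinone, carbonyl and other detoxification genes 5 rose and 0 fell with RAD001 (31.3% of all tested genes called), 2 rose and 1 fell with PD325901 (46.6%), and 2 rose with GDC0941 (24.3%). Blvrb, biliverdin reductase B, averaged 172 ± 3.58 FPKM with DMSO and 435 ± 88.3 with RAD001 (SD, n = 3), a rise of 1.31 ± 0.20 on the log2 scale (adjusted p = 0.000814 in limma). Osgin1, an oxidative stress-induced growth inhibitor, rose with RAD001 (1.07 ± 0.20), and the esterase gene Esd with RAD001 (0.77 ± 0.17) and GDC0941 (0.57 ± 0.17). The carbonyl reductase gene Cbr3 rose with GDC0941 (0.89 ± 0.21), RAD001 (0.83 ± 0.21) and PD325901 (0.79 ± 0.21). The aldehyde dehydrogenase gene Aldh2 rose with PD325901 (0.80 ± 0.10) and RAD001 (0.33 ± 0.10), and the UDP-glucose dehydrogenase gene Ugdh fell with PD325901 (-0.28 ± 0.08). Among 3 superoxide and peroxide enzymes that are not classic NRF2 targets, Sod1 rose with RAD001 (0.62 ± 0.11) and fell with PD325901 (-0.37 ± 0.11) and GDC0941 (-0.61 ± 0.11). Cat, catalase, rose with RAD001 (0.62 ± 0.15).

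For the 4 of the 10 genes whose group means ranged the most, the genes with the most similar pattern were taken by Pearson r of log2(FPKM + 1) over the 12 libraries. The libraries share treatments and replicate numbers, so these r values describe shared group differences and carry no test. For Nqo1 they were Zfp516 (r = 0.976), Cd274 (0.973) and Rsbn1l (0.961). Cd274 encodes the immune checkpoint ligand PD-L1. For Prdx1 they were B430306N03Rik (0.987), Synpo (0.978) and Pim3 (0.978). Abcc1, from the pathway list, was the gene most like Txnrd1 (0.992), ahead of Wfs1 (0.985) and Prkaa1 (0.982). For Gclc they were Ahctf1 (0.969), Cd80 (0.961) and H60b (0.960).

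Other differences moved with the same groups, and their part in these results was not tested. In these bulk samples, fewer cells of a type and less RNA per cell cannot be told apart. The marker counts below stand beside shares of all tested genes called of 46.6% with PD325901, 31.3% with RAD001 and 24.3% with GDC0941. All 5 proliferation markers fell with RAD001 and with GDC0941 and 4 of 5 with PD325901, with summed levels of 302 to 348 FPKM with DMSO, 125 to 131 with PD325901, 135 to 191 with RAD001 and 147 to 271 with GDC0941. Neutrophil maturation markers rose for 5 of 10 with RAD001 and 6 of 10 with PD325901, and 2 rose and 6 fell with GDC0941. Their sums were 16839 to 17635 FPKM with DMSO, 34818 to 45675 with PD325901, 21391 to 25709 with RAD001 and 7997 to 12275 with GDC0941. S100a8 and S100a9 (means 7180 and 7353 FPKM with DMSO) made up most of each sum. With RAD001, 7 of the 10 changes were positive and none fell. The means of Camp, Ltf and Ngp were lower with RAD001 (382, 145 and 1100 FPKM) than with DMSO (643, 239 and 1423). Monocyte and macrophage markers rose for 3 of 9 and fell for 2 with RAD001, rose for 3 and fell for 3 with PD325901, and rose for 1 and fell for 2 with GDC0941. They summed to 2478 to 2718 FPKM with DMSO, 3165 to 3663 with PD325901, 2820 to 3882 with RAD001 and 2034 to 2524 with GDC0941. Single markers did not follow these sums, and 5 of 9 changes were positive with each inhibitor. Mean Cd14 was 170 FPKM with DMSO, 34.0 with PD325901, 698 with RAD001 and 622 with GDC0941. Mean Msr1 was 201, 42.4, 419 and 265 FPKM in the same order. Other markers of the list ran differently. Mean Mertk was 5.23, 20.2, 2.13 and 3.80 FPKM, and mean Mrc1 10.7, 3.56, 1.25 and 11.75 FPKM, in that order.

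The labelled cell type was checked with 7 leukaemic myeloid markers (Ptprc, Itgam, Cd33, Kit, Hoxa9, Meis1 and Mpo), each of which reached 1 FPKM in every group. Kit, Hoxa9 and Meis1 were close to that limit, with group means of 1.29 to 3.853, 1.615 to 2.017 and 2.077 to 2.638 FPKM. Mpo averaged 2.249 FPKM with RAD001. With each inhibitor 2 of the 7 rose and 1 fell, where 46.6% of all tested genes were called with PD325901, 31.3% with RAD001 and 24.3% with GDC0941. The fall was in Mpo, a primary granule enzyme, with RAD001 (-3.07 ± 0.32) and GDC0941 (-2.29 ± 0.32), and in Itgam with PD325901 (-0.56 ± 0.08). Of the 5 B cell markers Cd79b alone reached 1 FPKM, falling with RAD001 (-1.39 ± 0.23) and GDC0941 (-1.49 ± 0.23), and Pax5 was listed at 0 in all 12 libraries. Of the 5 stromal and endothelial markers Pecam1 alone did so, and it fell with PD325901 (-0.65 ± 0.15), RAD001 (-0.85 ± 0.15) and GDC0941 (-2.31 ± 0.15). The 5 erythroid markers summed to at most 3.54 FPKM in any library. The 6 T and NK cell markers summed to 0.304 to 3.28 FPKM with DMSO, 4.93 to 6.33 with PD325901, 0.292 to 1.84 with RAD001 and 0.133 to 1.2 with GDC0941. Cd3d, the member of that list that was tested, rose with PD325901 (1.27 ± 0.35, adjusted p = 0.0106 by limma). Of the 5 megakaryocyte markers Pf4 alone reached 1 FPKM, and it differed widely between groups, with means of 96.6 ± 31.0 FPKM with DMSO, 18.5 ± 13.8 with PD325901, 241 ± 32.7 with RAD001 and 4.08 ± 0.59 with GDC0941 (SD, n = 3).

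Some assignments of reads are uncertain. In GENCODE M21, Txnrd1 overlaps Eid3 on the same strand, Keap1 overlaps the antisense gene Gm16754, and Gclm overlaps the pseudogene Gm6061 and the opposite-strand Gm17494. Txn1 has a processed pseudogene, Txn-ps1. Whether counting used strand, and how reads shared with such copies were assigned, is not given in the sources used here.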

How the data were processed

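The deposited values are FPKM per gene in 12 RNA-seq libraries. Per the submitters' processing notes, the authors' tools were TopHat2 2.0.4 and Cuffdiff, with the build mm9. The FPKM are labelled as normalized. No source used here gives the annotation, the Cuffdiff version, the use of strand or the method of any scaling between libraries. FPKM sums ran from 462335 to 587581 per library. Read counts and depth are unknown, so no counting interval could be computed.

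Groups and replicate numbers came from the sample titles. With R 4.3.3 and limma 3.58.1, 4 group means were fitted to log2(FPKM + 1) of the 10305 genes whose mean reached 1 FPKM (8 residual degrees of freedom, eBayes with trend, two-sided). Each of the 6 comparisons had its own Benjamini-Hochberg adjustment, with a threshold of 0.05. The comparisons with DMSO share the DMSO libraries. The procedure was tested on simulated data with planted changes.

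The 10 genes and the lists were chosen with earlier results of these data known. The 10 genes were always named. From each role group of the pathway list up to 3 genes with the smallest adjusted p under 0.05 per inhibitor were named, and a gene named for 1 inhibitor may be described for the others. For the 4 genes with the largest range of group means, the 3 most correlated genes were named.

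The replicate numbers were checked by correlating deviations from group means over all tested genes. All 3 same-numbered pairs exceeded 0.1 for PD325901 and RAD001 against DMSO (r = 0.183 to 0.316 and 0.201 to 0.379), PD325901 against RAD001 (0.149 to 0.345) and RAD001 against GDC0941 (0.309 to 0.583). They did not for GDC0941 against DMSO (lowest 0.0354) or PD325901 against GDC0941 (lowest -0.139). The labels do not say what a number stands for. The alternatives changed the pseudocount (0.1 or 5 FPKM), the filter (none, or a mean of 5 FPKM), the scaling (median ratios or quantiles), the groups in the fit (those compared alone), the model (a replicate block or library weights) or the libraries (each left out in turn, or the 4 of replicate 1 together).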

Additional observations from a re-analysis of the deposited data

How the results depend on the processing

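With the replicate number as a block, 2 of the 10 genes were called for PD325901 against DMSO, 7 for RAD001, 3 for GDC0941, 8 for PD325901 against RAD001, 5 for PD325901 against GDC0941 and 3 for RAD001 against GDC0941. The replicate block changed no call of the 10 genes other than Nqo1 with GDC0941 (-0.58, adjusted p = 0.0175 by limma), a comparison in which 1 of the 3 same-numbered pairs had a correlation of deviations above 0.1.

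Weighting libraries by their quality gave more calls. Of the 10 genes 5 were then called for PD325901 against DMSO, 6 for GDC0941 against DMSO and 8 for RAD001 against GDC0941. Of the pathway list it called 38 for PD325901, 45 for RAD001 and 27 for GDC0941 against DMSO, 41 for PD325901 against RAD001 and 23 for RAD001 against GDC0941. Of the 10305 tested genes it called 7073 for PD325901, 6923 for RAD001 and 3849 for GDC0941 against DMSO. Between inhibitors it called 7398 of them for PD325901 against RAD001 and 3048 for RAD001 against GDC0941. Without weights these all-gene counts were 4802, 3224, 2503, 5172 and 1798 in the same order, so the background of calls rose as well. With the replicate 1 libraries removed the counts among the 10 were 5 for PD325901 and 9 for GDC0941 against DMSO, 9 for PD325901 against GDC0941 and 8 for RAD001 against GDC0941. Those of the pathway list were then 36, 43 and 28 for PD325901, RAD001 and GDC0941 against DMSO and 24 for RAD001 against GDC0941. Over all genes the counts against DMSO were 5693, 4845 and 4321 in the same order. They were 6090 for PD325901 against GDC0941 and 3428 for RAD001 against GDC0941. With only 2 libraries a group, these fits assume a common spread. Quantile normalization left 1 call among the 10 for GDC0941 against DMSO and no filter left 1 for RAD001 against GDC0941. Fitting only RAD001 and GDC0941 left 7 of the pathway list and 701 of all genes.

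Leaving out single libraries gave 1 to 2 calls among the 10 for PD325901 against DMSO, 5 to 7 for RAD001, 2 to 5 for GDC0941, 5 to 8 for PD325901 against RAD001, 5 to 6 for PD325901 against GDC0941 and 1 to 6 for RAD001 against GDC0941. For the pathway list these were 20 to 22, 19 to 30, 7 to 22, 21 to 27, 21 to 26 and 8 to 16, and for all genes 4015 to 4252, 2231 to 3259, 1659 to 3140, 4397 to 4826, 4522 to 5144 and 959 to 1985, in the same order. For GDC0941 against DMSO the lowest counts of the pathway list and of all genes came without DMSO replicate 2, and the highest of each of the 3 counts without GDC0941 replicate 1. For RAD001 against GDC0941 the lowest of both came without RAD001 replicate 2, and 973 of all genes were called without RAD001 replicate 3.

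Of the log2 changes of the 10 genes that turned sign, 1 passed in its new direction, Srxn1 with GDC0941 without the replicate 1 libraries (0.24). The others passed neither before nor after. With median-ratio scaling these were Keap1 with PD325901 (0.01), Nfe2l2 for PD325901 against RAD001 (0.04) and Srxn1 for PD325901 against GDC0941 (0.05). After quantile normalization they were Keap1 with PD325901 (0.00), Nfe2l2 with RAD001 (-0.07) and for PD325901 against RAD001 (0.15), and Gsr (0.01) and Srxn1 (0.09) for PD325901 against GDC0941. With library weights they were Txn1 with PD325901 (-0.05), Nfe2l2 (0.01) and Srxn1 (0.13) with GDC0941, and Nfe2l2 for PD325901 against GDC0941 (0.00). Without the replicate 1 libraries they were Txn1 (-0.11) and Srxn1 (0.02) with PD325901, Nfe2l2 with RAD001 (-0.06) and GDC0941 (0.01), and Nfe2l2 for PD325901 against RAD001 (0.07), PD325901 against GDC0941 (0.00) and RAD001 against GDC0941 (-0.07). With single libraries left out, changes of 1 gene that took either sign ran from -0.06 to 0.08 (Nfe2l2), -0.53 to 0.15 (Srxn1), 0.00 to 0.13 (Gsr) and -0.04 to 0.16 (Txn1) with PD325901, from -0.08 to 0.17 (Nfe2l2) with RAD001, and from -0.52 to 0.16 (Srxn1) and -0.06 to 0.61 (Gsr) with GDC0941. Between inhibitors they ran from -0.16 to 0.09 (Nfe2l2) for PD325901 against RAD001, from -0.14 to 0.09 (Srxn1) and -0.55 to 0.12 (Gsr) for PD325901 against GDC0941, and from 0.00 to 0.25 (Nfe2l2) for RAD001 against GDC0941. The causes of these changes were not tested.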
